A study of Mus musculus with 8 samples.

Results

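The miR-322, miR-351, miR-450, miR-503 and miR-542 cluster is a run of X-linked microRNA (miRNA) genes, and its mature products were followed here in mouse CD8+ T cells of 2 ages. The 8 members were taken by name from the deposited count table, which lists 1978 mature miRNAs. They were selected on counts and age differences already known from these data, so their levels and differences between the ages are given as a description. Calls from a test run over all miRNAs are stated for members, and nothing is read from those calls. Small RNA libraries had been made from the spleens of C57BL/6 mice, an inbred strain, after enrichment of CD8+ T cells, the killer lymphocytes, on magnetic beads against CD8a. The neonatal group held 4 libraries from mice aged 5 to 7 days, and the adult group 4 libraries from mice aged 12 weeks. No other allele, treatment or agent is named for either group, and the labels give neither the sex of the mice nor whether a library came from 1 animal or a pool. The spread between libraries may therefore be technical, and so may the errors and p-values made from it.

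A miRNA is cut from a hairpin whose 5′ and 3′ arms (5p and 3p) can each give a mature strand, and it represses messenger RNAs that pair with its seed, bases 2 to 8. Neighbouring hairpins are often cut from a shared long transcript. In this cluster, miR-322 (the mouse counterpart of human miR-424) and miR-503 are relatives of the miR-15 and miR-16 family, which slows the cell cycle. Both are known from muscle cells, where they repress the cell cycle phosphatase Cdc25a. miR-351 carries the seed of the miR-125 family, known in blood cell development. For human miR-542-3p the inhibitor of cell death survivin is a known target. No role is given here for the miR-450 miRNAs.

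The mature sequences of all 8 members were found in RefSeq (GRCm38.p6, the assembly of mm10). They are shown because the seed, in capitals, decides which other miRNAs a member can be pooled with.
mmu-miR-322-5p: cAGCAGCAauucauguuuugga
mmu-miR-322-3p: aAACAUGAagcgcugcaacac
mmu-miR-503-5p: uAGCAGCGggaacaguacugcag
mmu-miR-351-5p: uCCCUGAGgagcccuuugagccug
mmu-miR-542-3p: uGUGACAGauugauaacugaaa
mmu-miR-450a-5p: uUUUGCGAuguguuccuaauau
mmu-miR-450b-5p: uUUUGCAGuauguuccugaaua
mmu-miR-450b-3p: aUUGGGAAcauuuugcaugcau
Each of the 8 members has a seed of its own, so the cluster holds 8 distinct seeds. miR-322-5p and miR-503-5p share bases 2 to 7 and differ at base 8. miR-450a-5p and miR-450b-5p differ at 7 of 22 positions when laid side by side without gaps.

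All 7 hairpins lie on the minus strand of chromosome X between 53047997 and 53054349, a span of 6353 bases (mm10). Along the transcribed strand the order is miR-322 (53054255 to 53054349), miR-503 (53053984 to 53054054), miR-351 (53053255 to 53053353), miR-542 (53049403 to 53049487), miR-450a-2 (53048299 to 53048367), miR-450a-1 (53048154 to 53048244) and miR-450b (53047997 to 53048078). The first 3 hairpins fit in 1095 bases and the other 4 in 1491 bases, with a gap of 3767 bases between these sets. RefSeq places miR-322, miR-503 and miR-351 within the span of the long noncoding RNA gene C430049B03Rik (53053112 to 53057190). In the GENCODE M21 annotation no exon or intron of another gene overlapped any of the 7 hairpins. miR-450a-5p is encoded by both miR-450a hairpins, and its reads had been split evenly between them, so the values below are their sum.

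Total counts were 1281033 to 2606637 per library. Levels are in CPM, the count relative to the library's total, with totals adjusted by TMM (a trimmed mean of ratios between libraries). A count of 0 allows up to 3 counts, which before that adjustment equalled 1.15 to 2.34 CPM and covers counting error only. T cell miRNAs fixed as markers (miR-150-5p, both arms of miR-142a, miR-181a-5p and miR-342-3p) were abundant in both groups, with a sum of 72937 to 75700 CPM over neonatal libraries, against 143488 to 210073 CPM over adult libraries. In bulk samples, fewer cells of a type and less RNA per cell cannot be told apart.

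The cluster as a whole stood higher in neonatal libraries. The 8 members together gave 679, 785, 825 and 828 CPM in neonatal libraries 1 to 4, against 201, 189, 248 and 179 CPM in adult libraries 1 to 4. The groups did not overlap, with means of 779 ± 69.8 CPM for neonatal and 204 ± 30.7 CPM for adult libraries (SD, n = 4 each). As a share of all counts, which amounts to scaling by library totals, the members took 0.0969% ± 0.00804 in neonatal and 0.0164% ± 0.00252 in adult libraries. On the log2 scale the summed level differed by 1.94 with TMM scaling and by 2.57 with library totals.

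All 8 members passed the filter on low counts that left 375 miRNAs. Of the 8, 7 were past the threshold as higher in neonatal libraries by edgeR's quasi-likelihood test (Benjamini-Hochberg adjusted p under 0.05) and none as lower. Over all 375 miRNAs 63.2% were past it in either direction, and 29.1% as higher. For the same 7 members every neonatal library stood above every adult library, as was the case for 26.4% of all miRNAs tested. Since the members were listed with this contrast known, nothing is read from these counts. The median log2 fold change, neonatal over adult, was 2.02 over the members and -0.05 over all miRNAs tested.

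**Figure D1:**
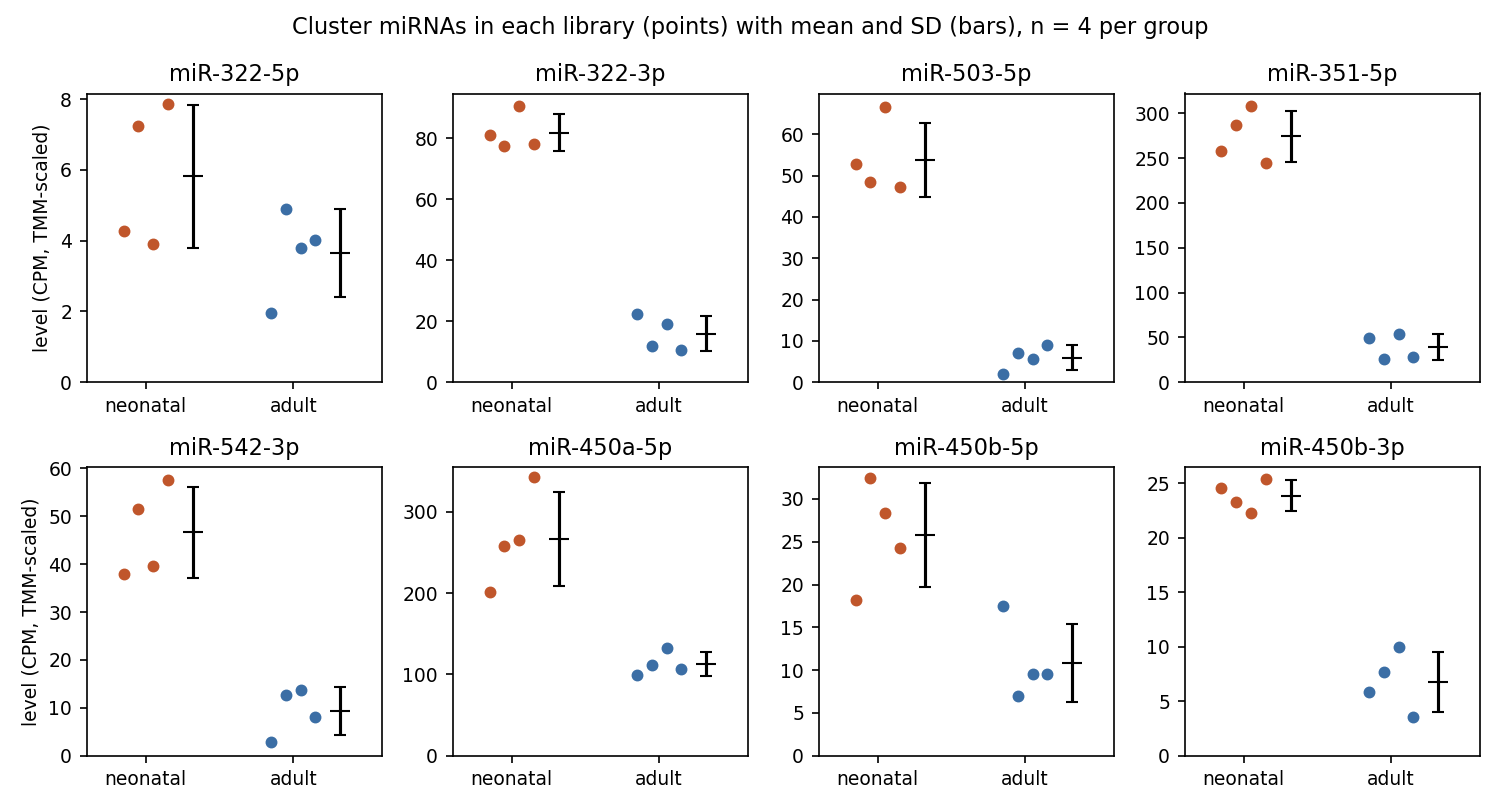
Level of each cluster miRNA (CPM after TMM scaling, vertical axes from 0) in 4 neonatal and 4 adult libraries, each point a library and each bar the mean with its SD. All neonatal points lie above all adult points for 7 miRNAs, and the groups overlap for miR-322-5p.

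The hairpins nearest the start of the run are miR-322, miR-503 and miR-351. miR-503-5p, the miR-15/16 relative, was at 52.8, 48.4, 66.7 and 47.2 CPM in neonatal libraries 1 to 4, against 1.94, 7.00, 5.70 and 9.03 CPM in adult libraries 1 to 4. It was thus near the counting floor in adult cells, on 2 to 18 counts per library, and well clear of it in neonatal cells, on 99 to 153. Its log2 fold change of 3.09 ± 0.30 (SE) was the highest of the cluster with TMM scaling and ranked 7 among 375. The size of that value was imprecise. It was 3.89 in libraries 1 and 3 of both groups alone and 2.51 in libraries 2 and 4 alone, a split chosen after the data were seen.

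miR-351-5p, which carries the miR-125 seed, was at 258, 287, 308 and 245 CPM in neonatal libraries 1 to 4, against 49.5, 25.9, 53.7 and 27.6 CPM in adult libraries 1 to 4. The lowest neonatal library had several times the level of the highest adult one. Its log2 fold change was 2.81 ± 0.24, rank 11 among 375. The adult libraries fell into a higher pair (1 and 3) and a lower pair (2 and 4). By that split the fold change was 2.58 within libraries 1 and 3 and 3.28 within libraries 2 and 4. Since the split follows these adult levels, those values are no separate evidence for it.

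miR-322-3p was at 81.1, 77.4, 90.6 and 78.0 CPM in neonatal libraries 1 to 4, against 22.3, 11.9, 19.0 and 10.5 CPM in adult libraries 1 to 4, a log2 fold change of 2.38 ± 0.25. Again no library of either group reached the other group's range. miR-322-5p, the arm with the full miR-15/16 seed, behaved differently from its partner strand. It was at 4.27, 7.25, 3.92 and 7.87 CPM in neonatal libraries 1 to 4, against 1.94, 4.90, 3.80 and 4.01 CPM in adult libraries 1 to 4. The groups overlapped, and the counts were 8 to 22 per neonatal and 2 to 8 per adult library. With a log2 fold change of 0.64 ± 0.39 it was the member that did not pass. It was past the threshold when scaled by library totals (1.25) and when each library's GC trend was taken out (0.92), also beside a replicate block (0.92). As for the other members, nothing is read from these calls.

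The other 4 hairpins give miR-542-3p and the miR-450 miRNAs. miR-542-3p was at 37.9, 51.5, 39.6 and 57.6 CPM in neonatal libraries 1 to 4, against 2.91, 12.6, 13.8 and 8.03 CPM in adult libraries 1 to 4, a log2 fold change of 2.25 ± 0.33. Adult library 1 was the lowest here, on 3 counts, as it was for miR-503-5p on 2 counts. miR-450a-5p was at 202, 258, 265 and 343 CPM in neonatal libraries 1 to 4, against 99.1, 112, 133 and 106 CPM in adult libraries 1 to 4. This was the most counted member in adult cells, and its log2 fold change of 1.24 ± 0.18 was the smallest among the 7 that passed.

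miR-450b-5p was at 18.1, 32.4, 28.3 and 24.3 CPM in neonatal libraries 1 to 4, against 17.5, 7.00, 9.51 and 9.53 CPM in adult libraries 1 to 4. Its groups were separated only by the small gap between neonatal library 1 and adult library 1, and its log2 fold change was 1.30 ± 0.30. miR-450b-3p was at 24.5, 23.3, 22.2 and 25.4 CPM in neonatal libraries 1 to 4, against 5.83, 7.70, 9.98 and 3.51 CPM in adult libraries 1 to 4, a log2 fold change of 1.80 ± 0.29. It held the tightest neonatal values of the cluster relative to their mean. Its sequence differs from that of miR-450a-1-3p by G19A and C20A alone (miR-450b-3p first, counted from the 5′ end), so reads of the pair may have been shared.

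These fold changes are relative to TMM scaling. With library totals in its place all log2 fold changes moved up by 0.63 on average, and those of the members ran from 1.25 for miR-322-5p to 3.72 for miR-503-5p. GC content of the mature strand also moved with the fold change. Over the 306 tested miRNAs outside the cluster that had a RefSeq sequence, Pearson's r between GC content and log2 fold change was 0.26, and over the 8 members it was 0.70. These miRNAs share the same 8 libraries and are not independent. GC content was 62.5% for miR-351-5p, 56.5% for miR-503-5p and 47.6% for miR-322-3p. It was 31.8% for miR-542-3p, miR-450a-5p and miR-450b-5p.

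With an offset for GC content in each library, all members kept a positive fold change but stood closer together. miR-351-5p then had a log2 fold change of 2.50 ± 0.19 and miR-503-5p of 2.80 ± 0.30. miR-542-3p went to 2.82 ± 0.29, miR-450a-5p to 1.81 ± 0.17 and miR-450b-5p to 1.88 ± 0.32. The median of the 4 miRNAs of the miR-322, miR-503 and miR-351 hairpins was 2.60 without and 2.44 with the offset, and that of the 4 miRNAs of the miR-542 and miR-450 hairpins 1.55 without and 2.06 with it. Position along the cluster and GC content cannot be told apart with so few members, since GC content was 40.9% to 62.5% in the first set and 31.8% to 36.4% in the second.

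**Figure D2:**
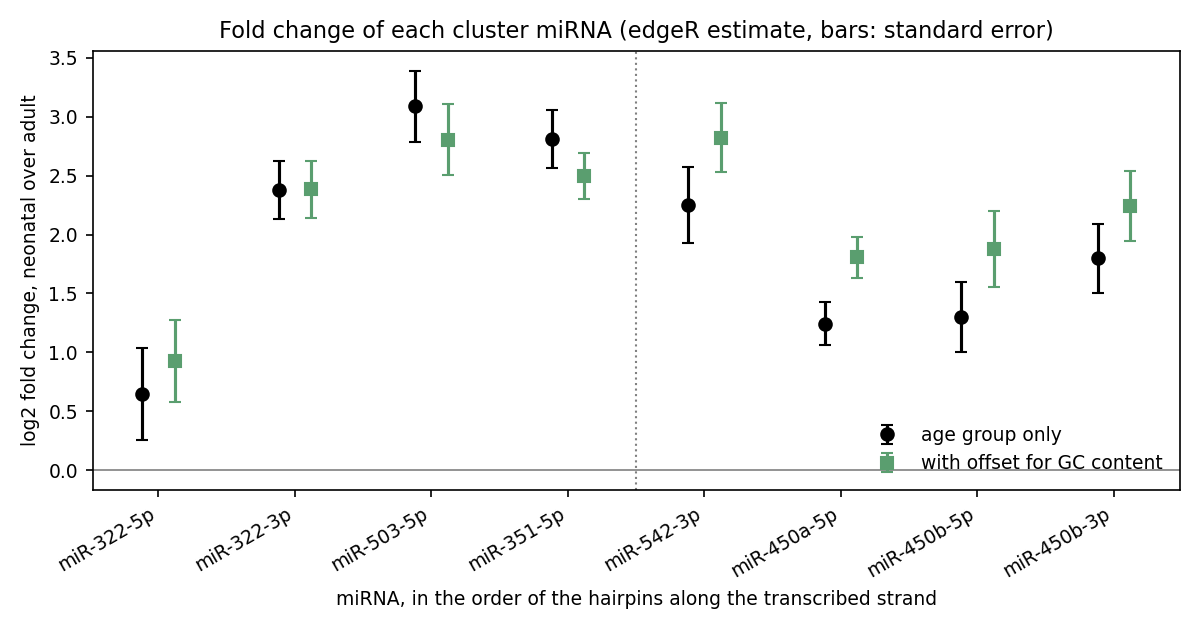
Log2 fold change, neonatal over adult, of each cluster miRNA in hairpin order along the transcribed strand, with standard errors, without (circles) and with (squares) an offset for GC content. The dotted line marks the gap between the first 3 and the other 4 hairpins, and all 16 values lie above 0.

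**Figure D3:**
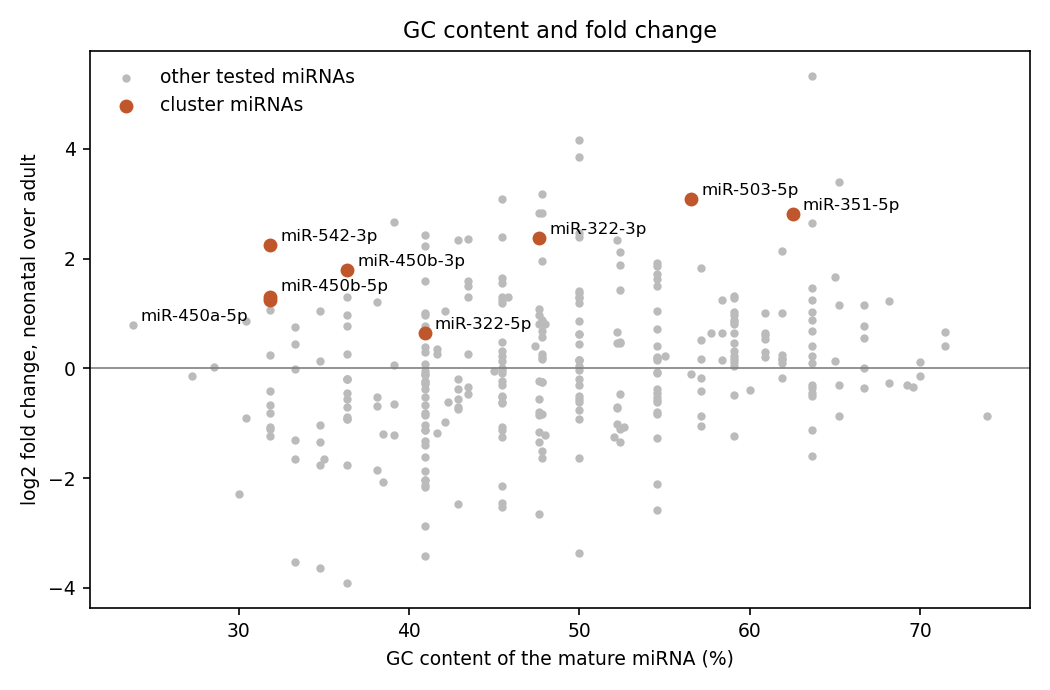
GC content of the mature miRNA (horizontal axis, percent) and log2 fold change, neonatal over adult (vertical axis), for 8 cluster miRNAs and 306 other tested miRNAs. The cluster miRNAs lie above 0 throughout, with miR-351-5p and miR-503-5p at the GC-rich end.

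The make-up of the cluster differed between the ages as well, a comparison within libraries that needs no scaling. miR-351-5p made up 38.1%, 36.6%, 37.3% and 29.6% of the members' counts in neonatal libraries 1 to 4, against 24.6%, 13.7%, 21.6% and 15.4% in adult libraries 1 to 4. miR-450a-5p made up 29.7%, 32.8%, 32.2% and 41.4% in neonatal libraries 1 to 4, against 49.3%, 59.3%, 53.4% and 59.6% in adult libraries 1 to 4. So miR-450a-5p led in all adult libraries, and miR-351-5p led in neonatal libraries 1 to 3. Library kits join adapters with sequence preferences, so the order of different miRNAs within a library is uncertain. Shares also move with the GC trend, which differed between libraries. The log2 fold change of miR-351-5p exceeded that of miR-450a-5p by 1.57 without and by 0.69 with the GC offset, so the shift between them was smaller once that trend was taken out. miR-503-5p took 6.93% ± 1.17 in neonatal and 3.01% ± 1.77 in adult libraries (SD, n = 4 each), without overlap. miR-322-5p took 0.744% ± 0.231 in neonatal and 1.83% ± 0.728 in adult libraries, lower in neonatal ones by a narrow gap (at most 0.95%, against at least 0.97% in adult libraries). The shares of miR-322-3p, miR-542-3p, miR-450b-5p and miR-450b-3p overlapped between the groups.

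By position, the miR-322, miR-503 and miR-351 miRNAs gave 58.4%, 53.5%, 56.9% and 45.6% of the members' counts in neonatal libraries 1 to 4, against 37.7%, 26.3%, 33.1% and 28.7% in adult libraries 1 to 4. They summed to 416 ± 39.5 CPM over neonatal libraries and 64.7 ± 16.7 CPM over adult libraries. The miR-542 and miR-450 miRNAs summed to 363 ± 68.8 CPM over neonatal libraries and 139 ± 18.7 CPM over adult libraries (SD, n = 4 each). Both sets were thus higher in neonatal libraries without overlap, and the first set differed more. The part of GC content in the difference between the sets was not tested.

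**Figure D4:**
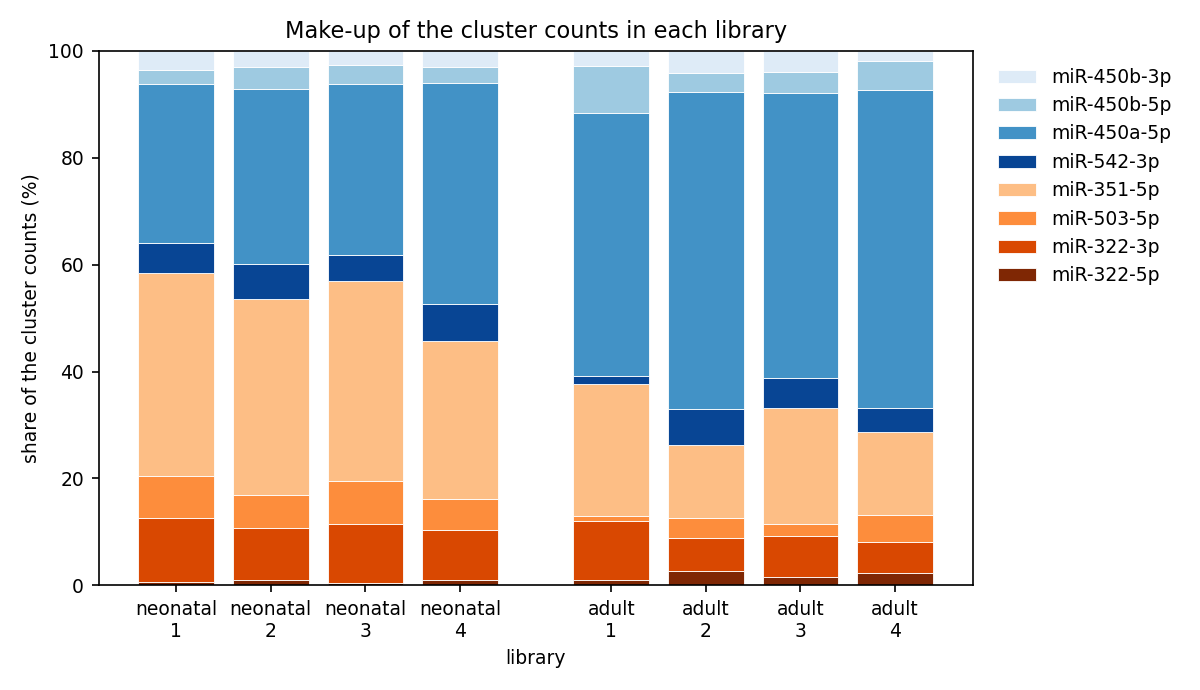
Share of the cluster counts (percent) held by each of the 8 miRNAs in each neonatal and adult library, stacked in hairpin order with miR-322-5p at the bottom. The orange shades (miR-322, miR-503, miR-351) take 45.6% to 58.4% of neonatal bars and 26.3% to 37.7% of adult bars, and the widest blue band is miR-450a-5p.

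For miR-322 and miR-450b both arms are members. In the miR-322 hairpin, printed with its arms in capitals because they differed so much in level, the 3p strand had more counts than the 5p strand in all 8 libraries.
Mir322: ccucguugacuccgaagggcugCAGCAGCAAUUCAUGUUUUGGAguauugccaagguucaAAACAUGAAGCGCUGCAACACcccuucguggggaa
The 5p strand made up 5.00%, 8.56%, 4.15% and 9.17% of both arms in neonatal libraries 1 to 4, against 8.0%, 29.2%, 16.7% and 27.6% in adult libraries 1 to 4. The shares overlapped through adult library 1, where the 5p strand had 2 counts. On the scale of log2((5p + 0.5)/(3p + 0.5)) the means were -3.82 ± 0.58 in neonatal and -2.01 ± 0.94 in adult libraries (SD, n = 4 each). For miR-450b the log2 ratio was 0.08 ± 0.41 in neonatal and 0.67 ± 0.89 in adult libraries, with overlap. The 5p strand made up 42.5%, 58.2%, 56.0% and 48.9% of both arms in neonatal libraries 1 to 4, against 75.0%, 47.6%, 48.8% and 73.1% in adult libraries 1 to 4. The arms were thus nearer to balance in neonatal libraries and in adult libraries 2 and 3 than in adult libraries 1 and 4. Those last shares rest on few counts, 18 for 5p and 6 for 3p in adult library 1, and 19 and 7 in adult library 4.

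The remaining 5 strands of these hairpins are not members and none passed the filter on low counts. miR-503-3p had 6, 12, 14 and 8 counts in neonatal libraries 1 to 4, against 1, 6, 5 and 0 in adult libraries 1 to 4. miR-351-3p had 0, 4, 12 and 5 counts in neonatal libraries and 0 in all adult libraries. miR-450a-1-3p reached at most 8 counts in neonatal and 1 in adult libraries. miR-542-5p and miR-450a-2-3p had at most 6 counts in any library. Summed, these strands took 1.31% ± 0.417 of all counts of the hairpins in neonatal and 1.98% ± 1.23 in adult libraries, with overlap. The list of members thus holds nearly all reads of the 7 hairpins in both groups.

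Other miRNAs with a member's seed show how much of a shared seed the cluster supplied. Only the 1679 miRNAs of the count table that matched a RefSeq sequence could be searched. Of these, 14 outside the 7 hairpins carried a member's seed, and 6 of the 14 passed the filter on low counts. They are listed for carrying a member's seed, and their p-values come from the fit of all 375 miRNAs. Of the 6, edgeR called 4 lower and 1 higher in neonatal libraries, against 34.1% and 29.1% of all miRNAs tested, and their median log2 fold change was -1.28. For 4 of the 6 all neonatal libraries stood below all adult ones (30.9% of all miRNAs tested).

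The seed of miR-351-5p belongs also to miR-125a-5p and miR-125b-5p, shown here with the seed in capitals.
miR-125a-5p: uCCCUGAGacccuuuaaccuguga
miR-125b-5p: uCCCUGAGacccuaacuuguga
miR-125a-5p was at 54.4, 80.1, 81.9 and 90.1 CPM in neonatal libraries 1 to 4, against 869, 656, 846 and 780 CPM in adult libraries 1 to 4. It was lower in neonatal libraries by 3.36 ± 0.19 on the log2 scale (edgeR's adjusted p = 2.78e-08). miR-125b-5p was at 161, 103, 181 and 75.8 CPM in neonatal libraries 1 to 4, against 69.0, 45.5, 45.2 and 43.2 CPM in adult libraries 1 to 4. It was higher in neonatal libraries by 1.37 ± 0.28 (edgeR's adjusted p = 0.00105).

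Within this pool miR-351-5p took 54.5%, 61.1%, 54.0% and 59.6% of the counts in neonatal libraries 1 to 4, against 5.01%, 3.56%, 5.68% and 3.24% in adult libraries 1 to 4. The means were 57.3% ± 3.59 in neonatal and 4.38% ± 1.16 in adult libraries (SD, n = 4 each). miR-351-5p was thus the main carrier of this seed by counts in all neonatal libraries, and miR-125a-5p in all adult libraries. The whole pool summed to 474, 470, 571 and 411 CPM in neonatal libraries 1 to 4, against 988, 727, 945 and 851 CPM in adult libraries 1 to 4. The pool was thus smaller in neonatal libraries on the TMM scale, without overlap. Scaled by library totals the groups overlapped, at 476 to 742 CPM for neonatal and 573 to 794 CPM for adult libraries. Because adapters favour some sequences, a share of counts need not equal a share of molecules.

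**Figure D5:**
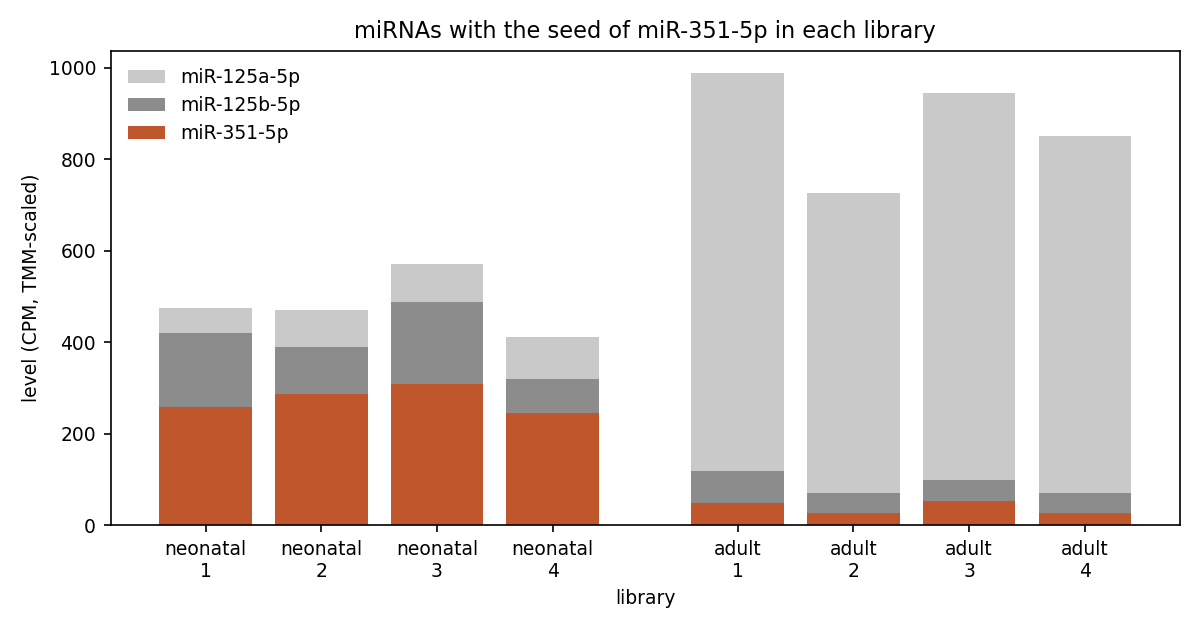
Level (CPM after TMM scaling) of the 3 counted miRNAs with the seed of miR-351-5p, stacked for each neonatal and adult library. miR-351-5p holds 54.0% to 61.1% of the pool's counts in neonatal and 3.24% to 5.68% in adult libraries, where miR-125a-5p fills most of the bar.

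The seed of miR-322-5p is that of miR-15 and miR-16, and there the cluster supplied little. On the log2 scale miR-16-5p was lower in neonatal libraries by 1.24 ± 0.15, miR-15b-5p by 1.32 ± 0.19 and miR-195a-5p by 2.48 ± 0.35 (edgeR's adjusted p of 1.73e-05, 6.45e-05 and 6.03e-05). miR-15a-5p stood at -0.22 ± 0.29 and did not pass. The sign of that last value turned to 0.39 with library totals and to 0.052 with the offset for GC content. The pool of this seed summed to 4063 ± 802 CPM over neonatal libraries and 9716 ± 884 CPM over adult libraries (SD, n = 4 each). miR-322-5p held 0.141% ± 0.0272 of its counts in neonatal and 0.0380% ± 0.0137 in adult libraries. With miR-503-5p added, over the 11 miRNAs that share bases 2 to 7, the 2 cluster members held 1.5% ± 0.395 in neonatal and 0.100% ± 0.0468 in adult libraries.

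Among the counted miRNAs that matched a RefSeq sequence, none outside the 7 hairpins had the seed of miR-322-3p, miR-503-5p, miR-542-3p, miR-450a-5p or miR-450b-5p. miRNAs without a match could not be searched. For miR-450b-3p the seed is shared with miR-450a-1-3p of the same cluster and with miR-6352, which had no count.

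Other miRNAs with a gene on chromosome X moved in both directions. Only miRNAs that matched a RefSeq sequence could be placed, 314 of the 375 tested, so the counts below can miss X-linked ones. miR-363-5p (log2 fold change 1.68 ± 0.16) had no match and is left out, though its partner strand miR-363-3p is included. Of 146 listed, 30 were tested, and edgeR called 8 higher and 12 lower in neonatal libraries, against 29.1% and 34.1% of all miRNAs tested. Scaled by library totals, 14 were higher and 8 lower, where 186 and 68 of all 375 miRNAs tested were. Their median log2 fold change was -0.24, or 0.41 with library totals, where that of the cluster members was 2.02 and 2.65. Among the 27 with genes on chromosome X alone, 8 were higher and 10 lower, and the median was 0.17 with TMM scaling. The most abundant by mean level were let-7f-5p and miR-92a-3p. let-7f-5p was lower in neonatal libraries by 0.82 ± 0.14 on the log2 scale (edgeR's adjusted p = 0.000179). miR-92a-3p, at -0.41 ± 0.20, did not pass (edgeR's adjusted p = 0.0853). With the replicate number as a block miR-92a-3p passed, at -0.40 ± 0.12 (edgeR's adjusted p = 0.00574), and it passed with the GC offset at -0.68 ± 0.15 (edgeR's adjusted p = 0.00147), while with library totals it stood at 0.23. let-7f-5p no longer passed with library totals (-0.19) or with the GC offset (-0.22). Both also have a gene on another chromosome.

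The 8 members tracked each other across the 8 libraries, with Pearson's r above 0 in all 28 pairs and a median of 0.87 on log2(CPM + 1). Much of that is the shared step between the age groups. After the group means were taken off, 17 of 28 pairs remained above 0, with a median of 0.11 and a range of -0.77 to 0.93. The highest was that of miR-322-3p with miR-351-5p (0.93) and the lowest that of miR-322-3p with miR-503-5p (-0.77). These pairs share libraries and depth, and rest on few counts in adult libraries.

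Among 297 tested miRNAs outside the cluster with a mean of at least 10 CPM, the closest to its summed level over the 8 libraries were miR-298-5p (r = 1.00 before and 0.82 after the group means were taken off), miR-744-5p (0.99 and 0.65), miR-181b-5p (0.98 and 0.30), miR-149-5p (0.98 and 0.70) and miR-212-5p (0.98 and 0.38). None of these 5 lies on chromosome X, but further down miR-501-3p (r = 0.97 before), miR-505-5p (0.96) and miR-224-5p (0.95) do. miR-363-5p (0.97) had no RefSeq match and was not placed, though its partner strand miR-363-3p is among the X-linked miRNAs. In all 19 miRNAs reached an r of at least 0.95 and 42 an r of at least 0.9, so the likeness was not rare. Of the closest 5, miR-212-5p stood nearest to the members in level, with 63.4 ± 6.51 CPM for neonatal and 8.45 ± 3.06 CPM for adult libraries (SD, n = 4 each) and a log2 fold change of 2.83 ± 0.25.

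miRNAs typical of other cells also moved with the age groups. Here rose and fell mean called higher and lower in neonatal libraries, as were 29.1% and 34.1% of all miRNAs tested. Of 8 stromal miRNAs 3 were tested and all 3 rose, and the list summed to 115 to 170 CPM over neonatal and 38.0 to 84.0 CPM over adult libraries, with miR-214-5p at 0 throughout. Both endothelial miRNAs rose, and their sums were 125 to 160 CPM for neonatal and 46.6 to 77.0 CPM for adult libraries. Of 5 erythroid miRNAs 3 were tested and rose, and the list summed to 308 to 775 CPM over neonatal and 120 to 252 CPM over adult libraries. These 3 lists held their calls when scaled by library totals, where 186 of all 375 miRNAs tested were higher and 68 lower. None of the 3 miRNAs listed as myeloid was tested. Their sums of 3.49 to 8.58 CPM for neonatal and 2.85 to 9.10 CPM for adult libraries overlapped, with miR-124-3p at 0 in adult ones. Whether each miRNA of that list marks myeloid cells was not tested. Of the liver and muscle list 1 of 3 rose, or 2 of 3 with library totals, with sums of 757 to 1597 CPM for neonatal and 249 to 408 CPM for adult libraries. Of 5 tested epithelial miRNAs 3 fell (2 rose and 2 fell with library totals), with sums of 2690.0 to 3398 CPM for neonatal and 3852 to 4482 CPM for adult libraries. Of the T cell list 4 of 5 fell (1 rose and 2 fell with library totals). The part of these other cells in the cluster's levels was not tested.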

How the data were processed

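The table deposited by the authors holds estimated counts, without normalization, for each pair of mature miRNA and precursor. The genome build was mm10, per the submitters' processing notes. Which aligner, counter and miRNA release they used is not given in the sources used here. Counts were summed over precursors and rounded to whole numbers. edgeR 4.0.16 (R 4.3.3) was run with filterByExpr (minimum count 10, total 15), TMM scaling and robust quasi-likelihood fits with age group as the only term, over all 375 miRNAs that passed, with Benjamini-Hochberg adjustment at 0.05. The standard error is the absolute fold change over the root of F. The procedure was tested on simulated counts. No libraries were merged, as chi-square over degrees of freedom was 15.7 to 361.6 for pairs of the same group.

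RefSeq sequences matched 1679 of 1978 miRNAs by name, and 314 of 375 tested (83.7%), which allowed an offset for GC content from a loess trend in each library. Alternatives were RLE scaling, library totals, other filters, DESeq2 1.42.0, limma-voom 3.58.1, a replicate block, the GC offset, rounding down and leaving out each library. The replicate numbers come from the labels, which do not say what they stand for. Deviations from group means correlated at r = 0.26 to 0.41 in all 4 same-numbered pairs and at -0.53 to 0.48 in the others. Neonatal library 4 with adult library 2 (0.48) exceeded every same-numbered pair, so whether the numbers pair the libraries is unsettled. The main fit had no term for the numbers, and the replicate block was an alternative. The members, lists and tests were chosen with earlier results of these data known. Named were all members, other strands of their hairpins, seed partners of at least 10 CPM, the 5 closest miRNAs and the 2 most abundant X-linked ones. Further names were miR-501-3p, miR-505-5p and miR-224-5p, as miRNAs placed on chromosome X with an r of at least 0.95. miR-363-5p was named for such an r without a RefSeq match, and miR-363-3p as its partner strand. miR-6352 and miR-214-5p were named for their counts of 0, and miR-124-3p for its 0 in adult libraries.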

Additional observations from a re-analysis of the deposited data

How the results depend on the processing

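Under 20 alternatives, 2 of them chosen after the data were seen (libraries 1 and 3 or 2 and 4 alone), the members gave 154 log2 fold changes, all above 0, and 151 stayed on their side of the threshold. The other 3 are those of miR-322-5p with library totals and the GC offsets, given above. The filter dropped miR-322-5p in some alternatives. Members called stayed at 7 when any library was left out and with the replicate block, which called 265 of all 375 miRNAs against 237. Of the fold changes named, the block changed the call of miR-92a-3p alone, as given above, and other X-linked miRNAs called lower were 14 in place of 12. When a library was left out, 220 to 253 were called over all. With library totals 186 were higher and 68 lower in place of 109 and 128, and the summed cluster level differed by 2.57 on the log2 scale. The share of miR-450b-3p in the cluster, -0.16 points neonatal minus adult, ran from -0.58 to 0.12 when a library was left out, turning above 0 without adult library 2 or 3. In libraries 1 and 3 alone and 2 and 4 alone, the share of miR-503-5p differed by 6.30 and 1.56 points, and that of miR-351-5p in its seed pool by 48.9 and 57.0 points. The fold change of miR-15a-5p, -0.22, turned to 0.39 with library totals and 0.052 with the GC offset, and that of miR-92a-3p, -0.41, to 0.23 with library totals. The cause was not tested. Depth limits miR-322-5p, miR-503-5p, miR-542-3p, miR-450b-5p and miR-450b-3p in adult libraries, on 2 to 29 counts.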

Other observations

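The make-up of the cluster also varied within each age group. In adult libraries 1 and 3 miR-351-5p held 24.6% and 21.6% of the members' counts, and in adult libraries 2 and 4 13.7% and 15.4%. Among neonatal libraries 4 was the lowest, with 29.6% against 36.6% to 38.1% in the others. miR-450a-5p ran the other way, at 41.4% in neonatal library 4 against 29.7% to 32.8% in the others, and at 59.3% and 59.6% in adult libraries 2 and 4 against 49.3% and 53.4% in adult libraries 1 and 3. Within adult libraries the chi-square per degree of freedom over all miRNAs was 40.0 between 1 and 3 and 51.7 between 2 and 4, and at least 142.7 for the other pairs. The labels do not say what the numbers stand for.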
